A study of Mus musculus with 8 samples.

Results

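The genes described here encode the voltage-gated calcium and sodium channels, together with the sodium leak channel *Nalcn* and the HCN pacemaker channels, as measured by RNA sequencing in isolated pituitary gonadotropes of the mouse. They were chosen by symbol alone. The rule took the *Cacna1* genes (pore-forming alpha1 subunits of calcium channels), *Cacna2d1* to *Cacna2d4*, *Cacnb1* to *Cacnb4*, *Cacng1* to *Cacng8*, the sodium channel genes whose symbol is *Scn* with a number and a or b, *Nalcn*, and the numbered *Hcn* genes. It found 45 genes among the 55523 entries of the count table. Gonadotropes are the pituitary cells that release LH and FSH. Cells positive for EGFP were sorted by fluorescence out of the pituitary. All 8 samples came from the genotype Ad4BP-BAC-EGFP, in which a transgene named for Ad4BP (another name of NR5A1) supplies the EGFP, so the sort followed the transgene. The samples comprised 4 of females and 4 of males, with no treatment named and no age in the labels. The comparison that the labels allow is therefore that of the sexes. The labels do not say how many animals gave each sample, so the p-values below measure only the spread between these samples.

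Voltage-gated calcium channels open when the membrane depolarises, and the calcium that enters triggers the release of hormone granules. An alpha1 subunit forms the pore and gives the channel its class (L, P/Q, N, R or T), whereas the alpha2-delta and beta subunits bring the pore to the membrane and tune its gating. Voltage-gated sodium channels carry the fast upstroke of the action potential, and their beta subunits modify them. NALCN is a sodium leak channel that sets the resting potential, and HCN channels carry an inward current on hyperpolarisation. Pituitary endocrine cells, gonadotropes included, fire action potentials and take up calcium through such channels.

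Levels are given as CPM, the counts of a gene relative to the size of its library, with library sizes scaled by the TMM factors of edgeR. The library totals were between 18774578 and 31302588 counts, and the floor of 3 counts corresponded to between 0.0921 and 0.146 CPM, which covers counting error only. *Xist* and 3 genes of the Y chromosome fitted the labelled sex in all 8 samples. Male replicate 1 stood apart from the other samples. Its *Nr5a1* was 16.3 CPM, against 584 to 801 CPM in male replicates 2 to 4 and 862 to 1266 CPM in the females, and *Malat1*, a nuclear non-coding RNA, took 11.1% of its counts, against at most 1.59% in any other sample. It was left out of the main comparison, as in the study, and its value is named as such where given. In the comparisons below, males are replicates 2 to 4 unless male replicate 1 is named. The 5 gonadotrope markers (*Fshb*, *Lhb*, *Cga*, *Gnrhr* and *Nr5a1*) were present in every sample, and their summed level was 21488 to 34863 CPM in the females and 67930 to 75717 CPM in male replicates 2 to 4. Of the 5, *Fshb* alone was higher and *Nr5a1* alone lower in all 3 of these males than in all females, and the other markers overlapped between the sexes. Genes that mark other cells of the gland were present as well. The 9 markers of other hormone cells, led by *Gh*, *Pomc* and *Prl*, summed to 36435 to 98149 CPM in the females and 93817 to 186880 CPM in male replicates 2 to 4, with 3 of the 9 higher in all 3 of these males than in all females. The 3 stem cell markers summed to 244 to 383 CPM in the females and 138 to 173 CPM in these males, with *Sox2* and *Sox9* lower in the males without overlap. The 4 stromal markers summed to 99.6 to 145 CPM and 85.6 to 97.1 CPM, with *Col1a1* lower without overlap, and of the 3 erythroid markers *Hbb-bs* was lower without overlap. The 4 endothelial and 3 immune markers each overlapped between the sexes. The part of these differences in any channel gene's difference between the sexes was not tested, and in such bulk samples fewer cells of a type and less RNA per cell cannot be told apart.

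Channel genes were expressed at low to moderate levels, and by mean share of CPM per kilobase the same gene led each subfamily in both sexes. Of the 45 genes, 28 reached 1 CPM in each of the 7 samples compared, 31 did so in all 4 females and 28 in all 3 males, and 1, *Cacna1s* of skeletal muscle, had 0 counts in all 8 samples. A mean of at least 5 CPM was reached by 23 genes. Levels of different genes were compared per length, as CPM per kilobase of exon. On that scale *Cacnb3* (mean of the 7 samples 17.7, range 10.3 to 24.8) was highest of the genes reported, followed by *Cacna2d1* (12.3, 10.3 to 14.7). Their ranges overlapped. *Cacng4* (8.59, 6.09 to 13.7), *Scn3a* (8.49, 1.30 to 13.9) and *Cacng8* (6.35, 4.80 to 8.34) came next, then *Nalcn* (3.50, 2.87 to 4.76). The highest pore of a voltage-gated calcium channel was *Cacna1d*, at 2.82 CPM per kilobase with a range of 1.63 to 3.89. Each of the 7 samples had more *Cacnb3*, *Cacna2d1*, *Cacng4* and *Cacng8* per kilobase than *Cacna1d* reached in any. Summed over the 10 alpha1 genes, the level per kilobase was 10.8 ± 2.26 (SD, n = 4) in females and 9.99 ± 0.830 (SD, n = 3) in males, beside 24.1 ± 2.26 and 16.3 ± 3.47 for the 4 beta genes.

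**Figure D1:**
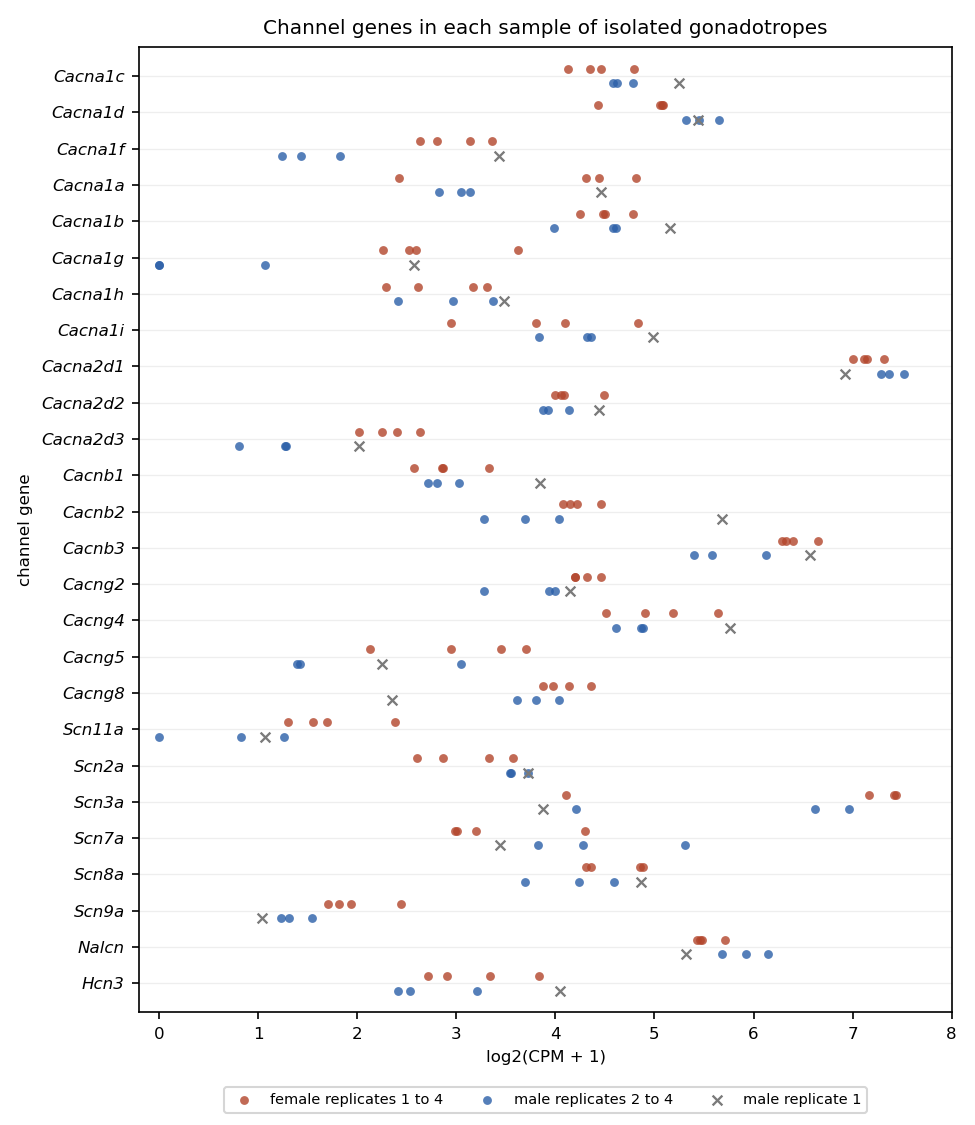
Level of 26 channel genes described sample by sample, as log2(CPM + 1) on the horizontal axis, with 4 female samples (red), male replicates 2 to 4 (blue) and male replicate 1 (cross). The points of *Cacna2d1* lie close together, *Scn3a* spreads over the widest range in both sexes, and *Cacna1f*, *Cacna1g* and *Cacna2d3* show males 2 to 4 to the left of all females.

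Few channel genes differed between the sexes beyond the spread of the samples. The sexes were compared over male replicates 2 to 4 and the 4 females by the quasi-likelihood test of edgeR with Benjamini-Hochberg adjustment over all 20152 entries that passed its filter on low counts. Of the 45 channel genes, 41 were tested, the others being *Cacna1s*, *Cacng3*, *Cacng7* and *Scn4b*. A single gene, *Cacna1f*, passed the threshold of an adjusted p of 0.05, and it fell in males. Over all entries tested, 2.34% passed, and 1.35% passed with a lower level in males, so 1 of 41 lies near the background. By fold change, 29 of the 41 were lower and 12 higher in males, with a median log2 fold change (male over female) of −0.56, against −0.03 over all entries. Low genes entered the test only where 1 group was high enough, so the same was read over genes with a mean of at least 5 CPM. There the median was −0.32 for the 23 channel genes and 0.01 for 12638 entries. The groups did not overlap, with all 3 males below all 4 females, for 11 of the 41 genes tested, where 10.8% of all entries tested did so. All 3 males lay above all females for 2 (*Cacna1d* and *Cacng1*), where 11.5% of all entries did so. Among the 23 genes with a mean of at least 5 CPM these counts were 5 (*Cacnb2*, *Cacnb3* and *Cacng2* among them) and 1, where the shares of entries at that level were 11.9% and 14.4%. Without adjustment, 13 of the 41 genes had a p below 0.05 (11 lower and 2 higher in males), where 19.9% of all entries did. With male replicate 1 included, 0 of 39 channel genes tested passed in edgeR (3 with an unadjusted p below 0.05) and their median was −0.07. Over all entries in that fit 67 passed, 1997 had an unadjusted p below 0.05 and the median was 0.03. With library sizes in place of TMM factors, 32 of the 41 were lower in males, their median was −0.76, that of all entries was −0.24, and the share of all calls that were higher in males was 16.5% in place of 42.0%.

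**Figure D2:**
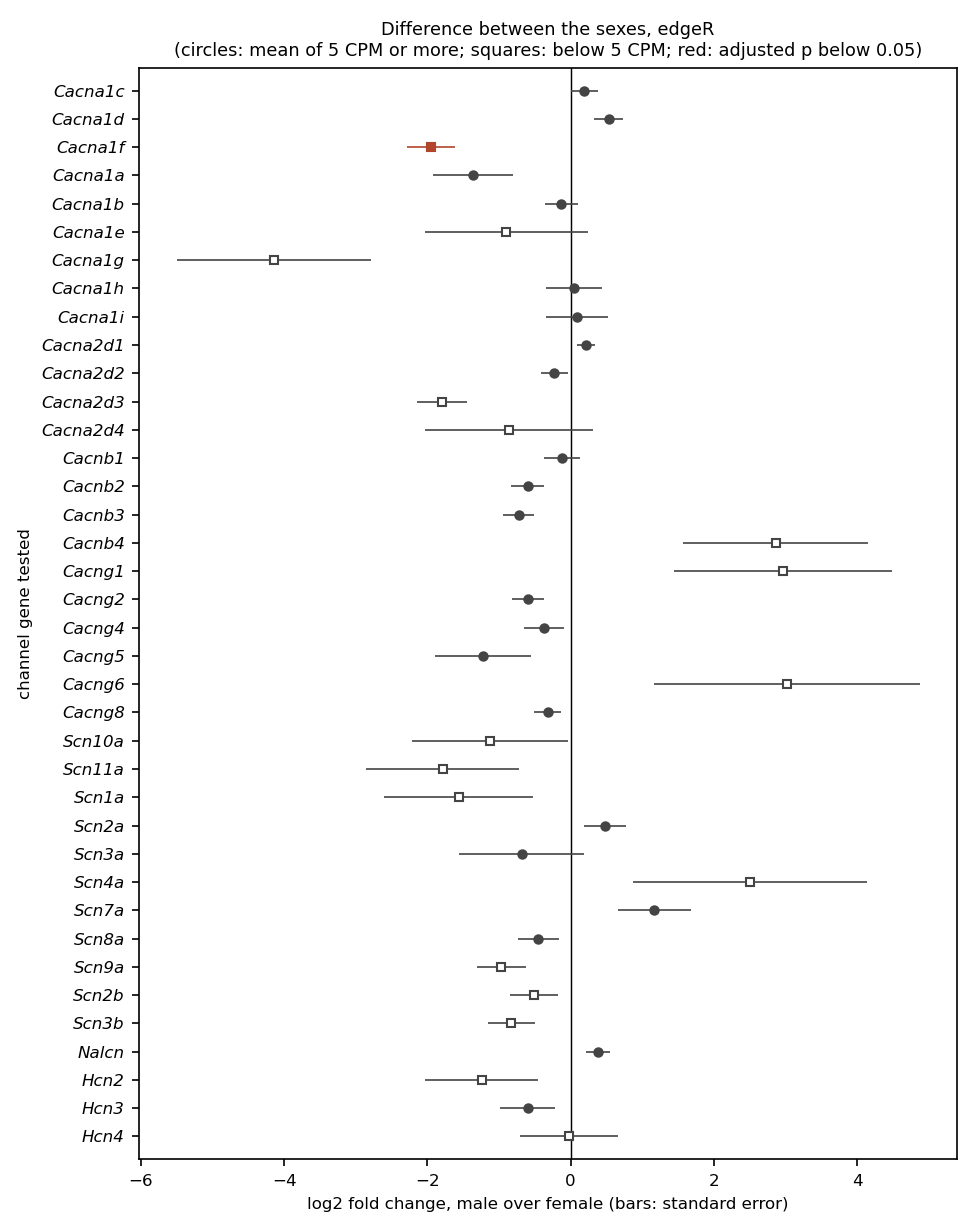
Log2 fold change, male over female, of 38 of the 41 channel genes tested, with the standard error as bars. Circles have a mean of at least 5 CPM, squares are below it, and the red square is *Cacna1f*, the only one of the 41 past an adjusted p of 0.05. Bars are widest for the low genes such as *Cacna1g*, *Cacng1* and *Cacng6*.

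*Cacna1f*, the L-type pore best known from the ribbon synapses of photoreceptors, lies on the X chromosome at X:7607083-7635196 (GRCm38, plus strand). Its level was 9.24, 5.22, 5.98 and 7.78 CPM in female replicates 1 to 4 and 1.69, 1.36 and 2.54 CPM in male replicates 2 to 4. Every female lay above every one of these males, by mean 7.06 ± 1.81 (SD, n = 4) against 1.87 ± 0.610 CPM (SD, n = 3). The log2 fold change was −1.95 with a standard error of 0.33 (edgeR, adjusted p = 0.0403), a 3.86-fold lower level in males. The two-sided exact permutation test gave p = 0.0286, the smallest value that 3 against 4 samples allow. Male replicate 1, at 9.78 CPM, was above every female. With it in the fit the log2 fold change was −0.88 and the adjusted p of edgeR 0.724. The call was also lost when any 1 of the 7 samples was left out, with adjusted p-values of edgeR between 0.0570 and 0.136 and log2 fold changes between −2.24 and −1.76. Of the 653 entries of the X chromosome that were tested, 22 (3.37%) passed and their median log2 fold change over all 653 was 0.08. *Syp*, the synaptic vesicle gene that starts downstream of *Cacna1f* on the same strand, was 398 to 577 CPM in females and 206 to 245 CPM in male replicates 2 to 4 (log2 fold change −1.17, edgeR adjusted p = 0.0304). No exon of another gene overlaps the exons of *Cacna1f* in GENCODE M21.

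The stretch upstream of *Cacna1f* is shown because this was the gene past the threshold and because the cells were sorted for a transgene of NR5A1, whose binding half-site is AAGGTCA. RefSeq promoter windows (GRCm38.p6) were matched for 33 of the 45 genes, 44 windows in all, and the 250 bases before each start were searched for AAGGTCA on both strands. The 7 letters were present in 3 of these 44 windows, those of *Cacna1f*, *Hcn2* (2 matches) and 1 start of *Scn8a* within its gene, and in 4.08% of all 32851 windows. The stretch of *Cacna1f* at X:7606853-7607082 (230 bases, plus strand) ends just before the annotated gene, and the capitals mark the match, which reads as AAGGTCA on the other strand. Its first base is 12 bases before the gene.
*Cacna1f* upstream: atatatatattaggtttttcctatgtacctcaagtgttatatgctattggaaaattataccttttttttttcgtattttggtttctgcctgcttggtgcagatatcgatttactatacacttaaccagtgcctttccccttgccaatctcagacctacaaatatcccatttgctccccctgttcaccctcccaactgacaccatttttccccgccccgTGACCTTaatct
A match of letters is a description of the sequence and not a site of binding. *Nr5a1* itself had a log2 fold change of −0.61, with a standard error of 0.18, and did not pass (edgeR, adjusted p = 0.130).

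Of the other L-type pores, *Cacna1d* and *Cacna1c* were higher per length than *Cacna1f*. *Cacna1d*, the L-type pore that opens at more negative potentials in neuroendocrine cells, was 32.3, 20.6, 32.7 and 33.0 CPM in female replicates 1 to 4 and 39.0, 42.8 and 49.1 CPM in male replicates 2 to 4. All 3 males lay above all females, and female replicate 2 lay far below the other females. The log2 fold change of 0.53 (standard error 0.21) did not pass (edgeR, adjusted p = 0.217). The exact permutation p was 0.0286. Male replicate 1, at 42.4 CPM, was inside the range of the other males. Its exons share 589 bases with *Chdh* on the opposite strand, and *Chdh* was between 1.89 and 4.10 CPM in the 7 samples. *Cacna1c*, the L-type pore of heart and smooth muscle, was 26.7, 16.4, 21.0 and 19.4 CPM in females and 23.6, 26.5 and 22.9 CPM in males, and the sexes overlapped. In the share of the summed alpha1 level per kilobase, *Cacna1d* made up 22.02% ± 4.66 (SD, n = 4) in females and 34.5% ± 1.61 (SD, n = 3) in males, and *Cacna1f* 7.15% ± 0.663 and 2.04% ± 0.573. Male replicate 1 had 20.5% and 6.57%, both within 1 SD of the female means. In the females the share of *Cacna1b*, the N-type pore (21.0% ± 4.83, SD, n = 4), differed from that of *Cacna1d* by less than either SD.

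Of the P/Q-, N- and R-type pores, which support fast release at synapses, none passed the test. *Cacna1b*, the N-type pore, was 18.005, 21.7, 21.4 and 26.5 CPM in females and 14.8, 23.4 and 23.0 CPM in males, with overlap. *Cacna1a*, the P/Q-type pore, was 27.1, 20.7, 4.36 and 18.8 CPM in females and 6.07, 7.25 and 7.81 CPM in males. Of the females, replicate 3 alone lay below the males, and the log2 fold change was −1.37 with a standard error of 0.56 (edgeR, adjusted p = 0.236). It passed in 1 of 15 alternatives, without female replicate 3 (−1.67, edgeR adjusted p = 0.0464). In the other fits that left out 1 sample the adjusted p of edgeR was 0.343 to 0.461, with all 8 samples 0.760 (log2 fold change −0.75) and with the replicate number as a block 0.572 (−0.84). Male replicate 1 was at 21.0 CPM, within the female range. *Cacna1e*, the R-type pore, stayed at or below 5.37 CPM in all 8 samples.

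The T-type pores open at small depolarisations and serve pacemaking. Of the 3, *Cacna1i* had the highest level per length (1.67 CPM per kilobase, beside 0.679 for *Cacna1h*). *Cacna1i* was 16.1, 6.73, 13.0 and 27.6 CPM in females and 18.95, 19.5 and 13.3 CPM in males, and *Cacna1h* 8.90, 5.12, 3.90 and 7.998 CPM in females and 6.82, 4.30 and 9.35 CPM in males. Both overlapped between the sexes, and their fold changes took the other sign under library size alone. *Cacna1g* showed another pattern, with 11.3, 5.02, 3.77 and 4.76 CPM in females, 0 counts in male replicates 2 and 3 and 1.09 CPM (24 counts) in male replicate 4. All males compared lay below all females, whereas male replicate 1, at 4.93 CPM, lay within the female range. The fitted log2 fold change of −4.15 had a standard error of 1.35 and did not pass (edgeR, adjusted p = 0.155). It passed in 2 of 15 alternatives, without male replicate 4, which leaves only males at 0 (edgeR, adjusted p = 0.0437), and with DESeq2 on the same 7 samples (adjusted p = 0.0350). In the other fits that left out 1 sample the adjusted p of edgeR was 0.188 to 0.303, with all 8 samples 0.696 (log2 fold change −2.04) and with the replicate number as a block 0.321.

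**Figure D3:**
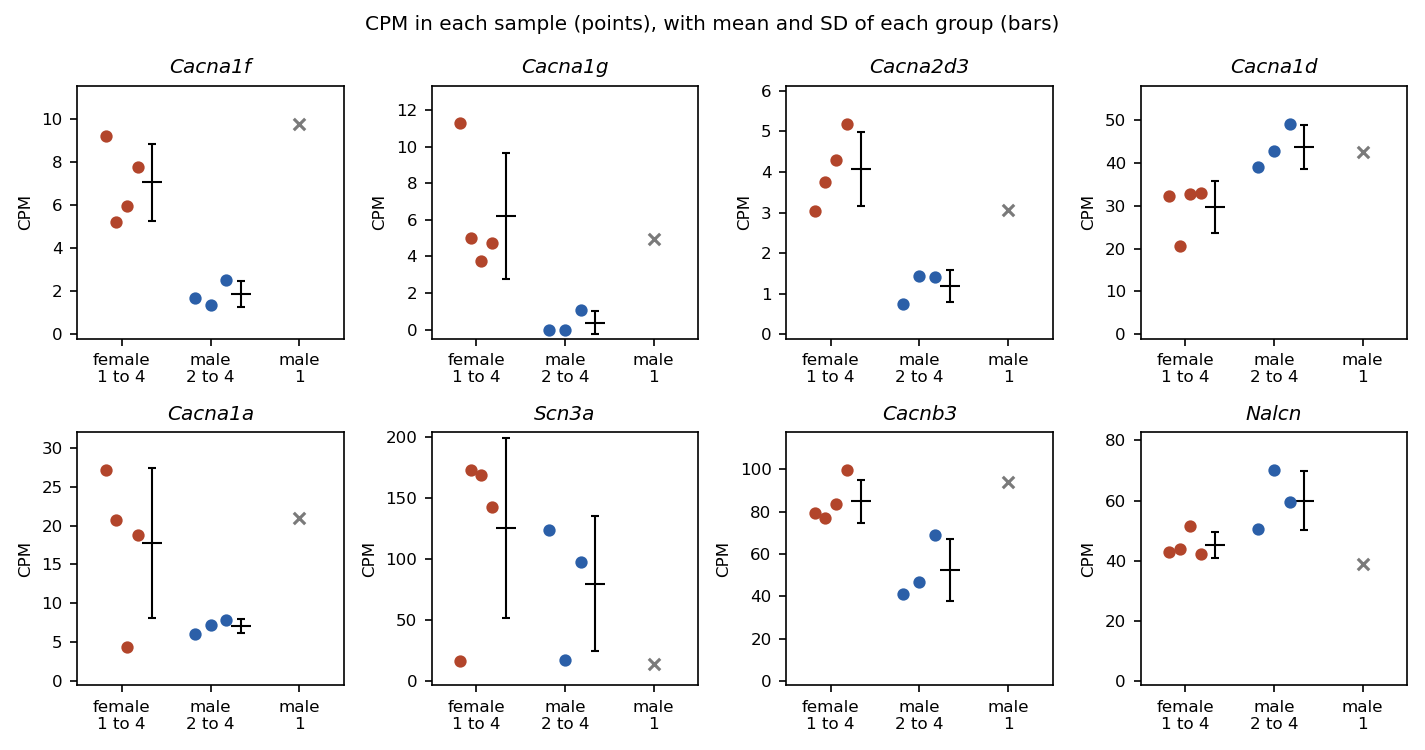
CPM of 8 channel genes in each sample, with female replicates 1 to 4 in red, male replicates 2 to 4 in blue, the mean and SD of each group as black bars, and male replicate 1 as a cross. *Cacna1f*, *Cacna1g*, *Cacna2d3* and *Cacnb3* were lower in all males compared and *Cacna1d* higher. *Scn3a* was near 15 CPM in female replicate 1, male replicate 3 and male replicate 1. Male replicate 1 was nearer the female than the male mean for *Cacna1f*, *Cacna1g*, *Cacna2d3*, *Cacna1a*, *Cacnb3* and *Nalcn*. For *Nalcn* it lay below both means. It was nearer the male mean for *Cacna1d* and *Scn3a*.

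The alpha2-delta subunits, which carry the pore to the cell surface and bind gabapentinoid drugs in the case of *Cacna2d1* and *Cacna2d2*, were dominated by *Cacna2d1*. It was 127, 138, 159 and 141 CPM in females and 164, 183 and 156 CPM in males, with a small overlap. Its spread within the sexes was above that of only 7.29% of the 12651 entries with a mean of at least 5 CPM. Its log2 fold change was 0.21 with a standard error of 0.13 (edgeR, adjusted p = 0.413), and its share of the subfamily per kilobase was 80.2% ± 3.64 (SD, n = 4) in females and 86.5% ± 2.11 (SD, n = 3) in males. *Cacna2d2* was 21.5, 15.7, 16.0 and 15.001 CPM in females and 13.7, 14.2 and 16.6 CPM in males. *Cacna2d3*, a brain alpha2-delta, was 3.04, 3.76, 4.30 and 5.19 CPM in females and 0.749, 1.43 and 1.41 CPM in males, without overlap. Its log2 fold change of −1.79 (standard error 0.35) stood just outside the threshold (edgeR, adjusted p = 0.0525), and it passed with library size alone (adjusted p of edgeR 0.0333) and with DESeq2 (adjusted p = 2.10e-04). It did not pass with all 8 samples (log2 fold change −1.29, edgeR adjusted p = 0.350), with the replicate number as a block (0.227) or with any 1 sample left out (0.0788 to 0.145). Male replicate 1, at 3.06 CPM, was within the female range. *Cacna2d4* did not exceed 3.64 CPM.

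Of the beta subunits, which bind the pore inside the cell and raise its surface level, *Cacnb3* led in every sample. Its level was 79.5, 77.2, 83.5 and 99.6 CPM in females and 41.2, 46.7 and 69.0 CPM in males, so that all males compared lay below all females. The log2 fold change was −0.73 with a standard error of 0.22 (edgeR, adjusted p = 0.134). Male replicate 1, at 93.9 CPM, was within the female range. *Cacnb2*, the main beta subunit of the heart, was 17.6, 21.1, 16.8 and 15.9 CPM in females and 8.71, 15.4 and 11.9 CPM in males, again without overlap (log2 fold change −0.60, edgeR adjusted p = 0.214). Male replicate 1 reached 50.5 CPM for *Cacnb2*, above all other samples, and with it in the fit the fold change took the other sign (0.28). *Cacnb1*, the beta subunit of skeletal muscle, was 9.02, 6.24, 4.94 and 6.31 CPM in females and 7.17, 6.003 and 5.54 CPM in males. *Cacnb4* was at most 1.504 CPM in every sample except male replicate 3, with 24.2 CPM (640 counts). The exons of *Cacnb4* share 1433 bases with *A430018G15Rik* on the opposite strand, which was 20.1, 21.5 and 24.3 CPM in male replicates 2 to 4, so this gene did not stand out in male replicate 3. The library kit does not mark strand, and reads of the 2 genes in the shared stretch cannot be told apart.

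The gamma genes include subunits of the muscle channel and, in *Cacng2*, *Cacng4*, *Cacng5* and *Cacng8*, proteins that are best known as partners of AMPA receptors. *Cacng4* and *Cacng8* made up most of the subfamily per length, with 42.0% ± 7.17 and 31.5% ± 3.66 (SD, n = 4) in females and 42.0% ± 8.34 and 31.4% ± 4.53 (SD, n = 3) in males. *Cacng4* was 21.8, 28.9, 35.4 and 48.9 CPM in females and 28.1, 23.5 and 28.5 CPM in males, and *Cacng8* 13.6, 14.8, 19.5 and 16.6 CPM in females and 13.0, 15.4 and 11.3 CPM in males. Both overlapped between the sexes. *Cacng2* was 21.0, 18.9, 17.3 and 17.3 CPM in females and 14.97, 14.3 and 8.72 CPM in males, without overlap (log2 fold change −0.59, edgeR adjusted p = 0.20002), and male replicate 1 was at 16.7 CPM, between the sexes. *Cacng5* was 3.38, 12.0, 9.91 and 6.70 CPM in females and 7.25, 1.62 and 1.68 CPM in males. The other 4 gamma genes stayed below 3 CPM. Of these *Cacng1*, the gamma subunit of skeletal muscle, was 0 CPM in 3 females and 0.476 CPM in female replicate 4, and 1.02, 1.36 and 0.545 CPM in males, and *Cacng3* had 0 counts in the females and 7, 8 and 8 counts in male replicates 2 to 4.

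**Figure D4:**
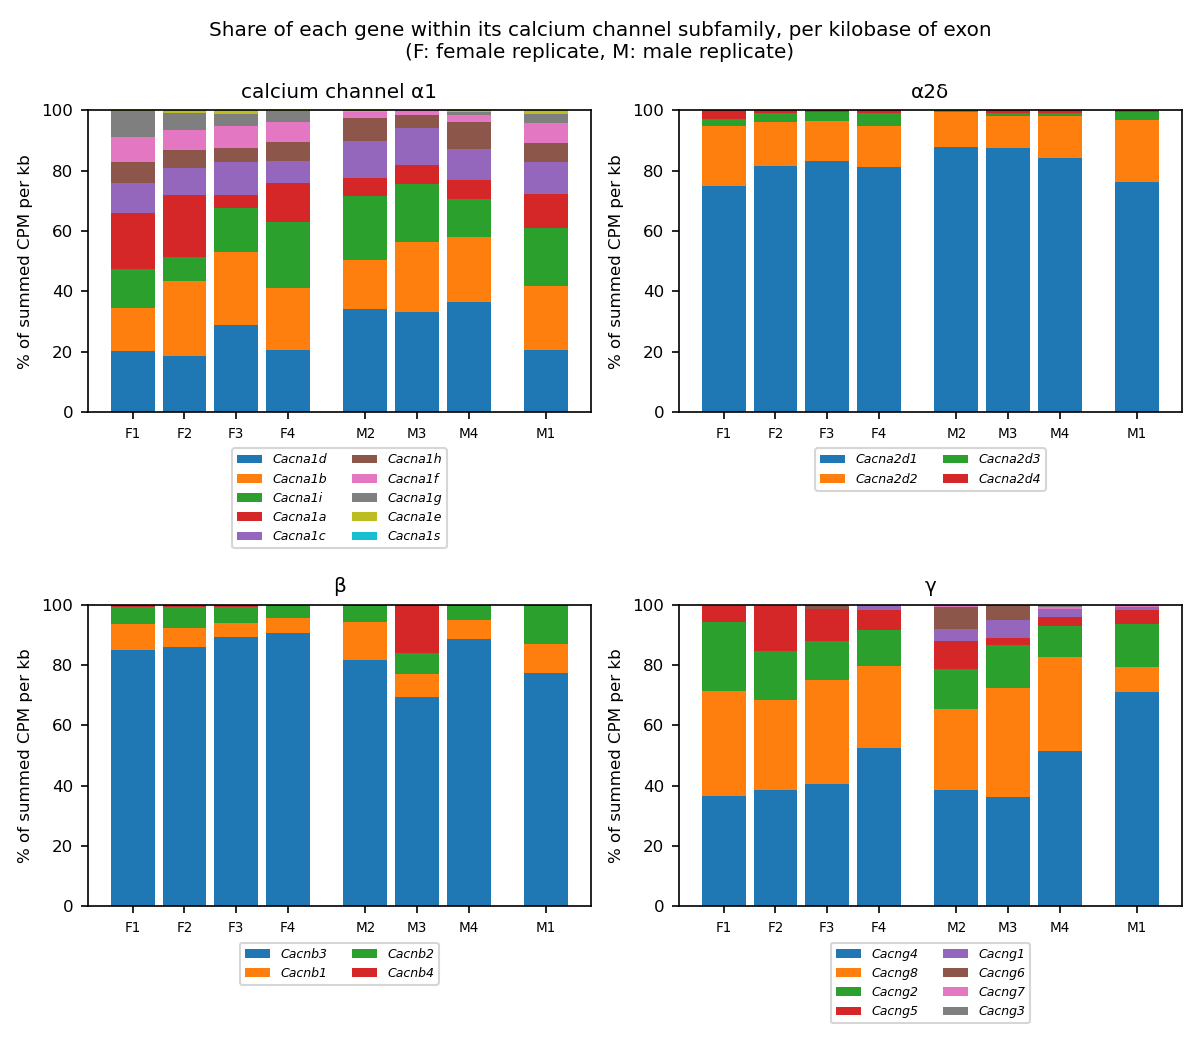
Share of each gene in the summed CPM per kilobase of the 4 calcium channel subfamilies, in percent, for each of the 8 samples, with female replicates 1 to 4 at the left of each panel, male replicates 2 to 4 next and male replicate 1 last. *Cacna2d1* and *Cacnb3* fill most of their panels in every sample, and *Cacna1d* has a larger share in male replicates 2 to 4 than in females, while *Cacnb4* has its largest share in male replicate 3.

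The sodium channel alpha subunits varied most among the samples. *Scn3a*, a pore best known from the developing brain, was 16.2, 173, 170 and 143 CPM in females and 124, 17.5 and 97.4 CPM in males. Female replicate 1 and male replicate 3 were low, as was male replicate 1 with 13.6 CPM, and the other samples were at 97.4 CPM or above. The highest of the 7 samples was 10.7-fold above the lowest. The spread of *Scn3a* within the sexes (SD of 1.58 on the log2(CPM + 1) scale) was above that of 94.8% of the 12651 entries with a mean of at least 5 CPM, whose median was 0.29. The sexes overlapped (log2 fold change −0.69, standard error 0.88, edgeR adjusted p = 0.741). Its share of the subfamily per kilobase was 16.1% in female replicate 1 and 63.5% to 67.9% in the other females, and 62.5%, 19.5% and 44.4% in male replicates 2 to 4.

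*Scn8a*, the pore of the axon initial segment, was 18.8, 28.4, 27.9 and 19.5 CPM in females and 12.0, 17.8 and 23.1 CPM in males. *Scn7a*, an atypical sodium channel that senses sodium levels, was 8.17, 18.7, 7.03 and 6.92 CPM in females and 18.4, 13.2 and 38.6 CPM in males, with overlap (log2 fold change 1.17, standard error 0.51, edgeR adjusted p = 0.262). *Scn2a*, a pore of central neurons, was 9.07, 10.9, 5.06 and 6.31 CPM in females and 12.2, 10.6 and 10.7 CPM in males. The pores of sensory neurons were low. *Scn9a* was 2.27, 2.83, 4.45 and 2.51 CPM in females and 1.34, 1.47 and 1.91 CPM in males, and *Scn11a* 4.19, 2.24, 1.93 and 1.47 CPM in females and 0, 1.40 and 0.772 CPM in males. Neither overlapped between the sexes and neither passed (edgeR, adjusted p = 0.179 and 0.418). *Scn1a*, *Scn4a* and *Scn10a* stayed below 2 CPM in all samples, and *Scn1a* (0.976 to 1.81 CPM in females, 0 to 0.863 CPM in males) did not overlap between the sexes either.

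Among the sodium channel beta subunits, which modify gating and join the pore to its surroundings, none passed the test. *Scn2b* was at most 5.56 CPM in the 7 samples, against 29.2 CPM in male replicate 1, and *Scn3b* was between 2.44 and 6.29 CPM.

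*Nalcn*, the leak channel, was 42.9, 43.8, 51.6 and 42.2 CPM in females and 50.4, 70.0 and 59.5 CPM in males. Female replicate 3 overlapped with the lowest male, and the log2 fold change was 0.38 with a standard error of 0.16 (edgeR, adjusted p = 0.251). Male replicate 1, at 39.0 CPM, was below the other 7 samples. Of the HCN channels, *Hcn3* had the largest share per kilobase, at 65.9% ± 9.09 (SD, n = 4) in females and 67.6% ± 10.3 (SD, n = 3) in males. It was 13.3, 5.56, 6.51 and 9.12 CPM in females and 4.33, 4.79 and 8.26 CPM in males, with overlap. Although 711 bases of its exons are shared with *Pklr* on the opposite strand, *Pklr* itself did not exceed 0.0488 CPM. *Hcn2* and *Hcn4*, the main HCN genes of brain and of the sinus node, did not exceed 3.59 CPM.

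Of the 30 genes listed as partners of these channels, 2 passed the test and both fell in males, where 1.35% of all entries passed in that direction. The list held the NALCN complex, RGK GTPases, STAC adaptors, FGF homologous factors, ankyrin and spectrin anchors, an HCN trafficking protein, tethers of the active zone, calmodulins with a calcium-binding protein, and a ubiquitin ligase. All 30 genes were matched, 2 of them by an older symbol, and 29 were tested. *Rims4*, a short RIM protein of the active zone, was 106, 118, 75.1 and 65.0 CPM in females and 15.4, 15.9 and 13.7 CPM in males, with a log2 fold change of −2.64 and a standard error of 0.26 (edgeR, adjusted p = 0.0115). It passed in every fit that left out 1 sample. *Tmem28*, listed as *Fam155b*, a paralogue of the NALCN partner *Fam155a*, was 26.4, 22.8, 26.8 and 33.2 CPM in females and 8.63, 12.3 and 13.4 CPM in males (log2 fold change −1.29, standard error 0.22, edgeR adjusted p = 0.0417). It did not pass in any fit that left out 1 sample, with adjusted p-values of edgeR between 0.0768 and 0.136. Male replicate 1 was above the other males for both, at 23.7 CPM for *Rims4* and 16.5 CPM for *Tmem28*, and below every female.

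Calmodulins bind the L-type pores and confer calcium-dependent inactivation. *Calm2* was 903 to 1128 CPM in females and 1046 to 1286 CPM in males, and *Calm3* 252 to 271 CPM and 255 to 261 CPM. Both overlapped between the sexes, and their log2 fold changes were 0.24 and −0.06. Over the 29 partners tested the median log2 fold change was −0.21, with 16 lower and 13 higher in males. The sexes did not overlap for 5 with lower values in males, where 10.8% of all entries did so, and for 4 with higher values, where 11.5% did so. Beside *Rims4* and *Tmem28*, the former were *Rrad*, an RGK protein that inhibits L-type channels, *Stac* and *Sptbn4*, and the latter were *Unc80* and *Fam155a* of the NALCN complex, *Fgf14* and *Ank2*. They are named after their values were seen. *Fam155a* was 82.4 to 125 CPM in females and 162 to 180.04 CPM in males (log2 fold change 0.64, edgeR adjusted p = 0.0921), *Unc80* 57.6 to 143 CPM and 159.8 to 183 CPM (0.76, adjusted p = 0.291), and *Rrad* 121 to 237 CPM and 63.4 to 94.4 CPM (−1.25, adjusted p = 0.0609).

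Male replicate 1 had other levels of most channel genes than the other males. Of the 23 genes with a mean of at least 5 CPM, 16 were above the range of male replicates 2 to 4, 5 were below it and 2 were inside it. Of the 12651 entries at that level, 32.9% were above and 40.9% below. Against the females, 8 of the 23 lay inside the range of the 4 samples, 10 above and 5 below, where 43.7% of the entries lay inside and 25.6% above. Among the genes named at that level, those farthest above the mean of the other males were *Cacnb2* (4.204 times), *Cacna1a* (2.99 times) and *Hcn3* (2.68 times). Those farthest below were *Scn3a* (0.171 times), *Cacng8* (0.310 times) and *Scn7a* (0.422 times). These ratios are given with no test. This sample also stood apart in its *Malat1* share and *Nr5a1* level, and the relation of either to these values was not tested.

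**Figure D5:**
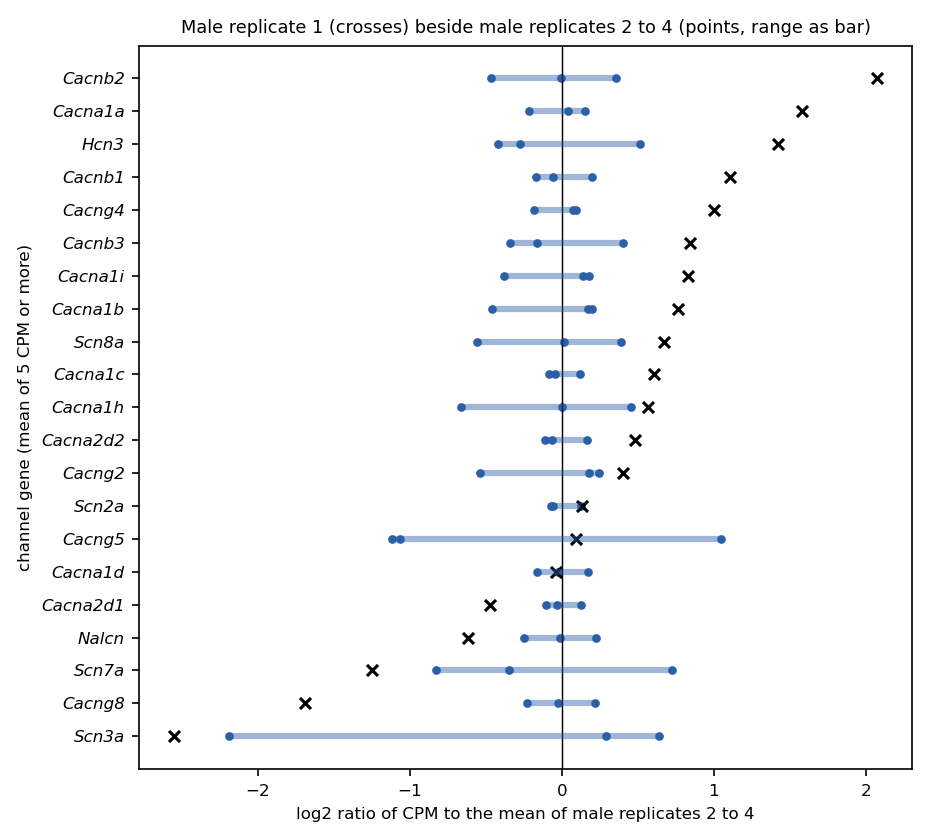
Log2 ratio of CPM to the mean of male replicates 2 to 4 for 21 of the 23 channel genes with a mean of at least 5 CPM, with male replicates 2 to 4 as blue points, their range as a bar, and male replicate 1 as a cross. The cross lies right of the bar for 14 of these genes and left of it for 5, from *Cacnb2* at the top to *Scn3a* at the bottom.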

How the data were processed

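RNA of EGFP-positive sorted pituitary cells was sequenced in 4 female and 4 male samples. The authors deposited raw counts of reads per gene in a single table without normalization. The submitters' processing notes name cutadapt, STAR, featureCounts and the GRCm38 (mm10) build. The annotation is not given in the sources used here. The sexes were compared (females 1 to 4, males 2 to 4) with edgeR 4.0.16 in R 4.3.3 (TMM, filterByExpr, quasi-likelihood test, Benjamini-Hochberg adjustment over all entries, threshold 0.05), which was tested on simulated data. The standard error is the absolute log2 fold change divided by the square root of F. The two-sided exact permutation test used mean log2(CPM + 1) over all 35 divisions of the 7 samples. Alternatives were DESeq2 1.42.0, other size factors, filters and dispersions, all 8 samples, a replicate block, summed loci and each sample left out. Positions and exonic lengths came from GENCODE M21. Of the 45 channel genes, 33 are counted under MSTRG identifiers, whose gene models are not given in the sources used here, so CPM per kilobase rests on exon lengths that may differ from those counted. Values per sample are given for genes with a mean of at least 5 CPM, past the threshold, or without overlap at a mean of at least 1 CPM, and for partners past the threshold or among the 3 highest. A few genes enter the counts but are not reported here by name. The genes and lists were chosen with earlier results of these data known.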

Additional observations from a re-analysis of the deposited data

Results flagged for a closer look

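A sample lay far from the others of its sex in 12 of 60 groups of 4 samples (by the 95% critical value of Dixon), where chance flags about 1 in 20 groups, or 3 of 60. Of these, 5 were the highest value of male replicate 1. It was at 9.78 CPM for *Cacna1f* (other males 1.36 to 2.54), 21.0 CPM for *Cacna1a* (6.07 to 7.81), 50.5 CPM for *Cacnb2* (8.71 to 15.4) and 53.3 CPM for *Cacng4* (23.5 to 28.5). It was at 29.2 CPM for *Scn2b* (2.17 to 4.38). In the other males, male replicate 3 was at 24.2 CPM for *Cacnb4* (0.512 to 1.14 in the others). In the females, female replicate 2 was at 20.6 CPM for *Cacna1d* (32.3 to 33.0) and 18.7 CPM for *Scn7a* (6.92 to 8.17). Female replicate 1 was at 11.3 CPM for *Cacna1g* (3.77 to 5.02) and 21.5 CPM for *Cacna2d2* (15.001 to 16.02). Female replicate 3 was at 51.6 CPM for *Nalcn* (42.2 to 43.8), and female replicate 4 was at 0.216 CPM for *Cacnb4* (1.415 to 1.504).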

How the results depend on the processing

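The number of entries called between the sexes was 471, and moved to 2253 with DESeq2, 808 with library size only, 177 with no filter beyond 1 count and 67 with all 8 samples. It was 88 (without male replicate 3) to 171 (without female replicate 1) when 1 sample was left out. The number of channel genes called moved from 1 to 4 with DESeq2 (*Cacna1f*, *Cacna1g* and *Cacna2d3* among them), 3 with library size only, 0 with no filter and with all 8 samples (14 and 3 with an unadjusted p of edgeR below 0.05, beside 4327 and 1997 of all entries), and 0 to 1 with 1 sample left out (*Cacna1a* without female replicate 3, *Cacna1g* without male replicate 4). Their median log2 fold change moved to −0.068 with all 8 samples, −0.76 with library size only, and −0.54 to −0.40 with 1 sample left out. With the threshold of detection at 5 CPM, 18 channel genes were detected in place of 28.

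With the replicate number as a block in edgeR, 0 entries and 0 channel genes passed, and 2954 entries and 8 channel genes had an unadjusted p below 0.05. Deviations of same-numbered samples had correlations of −0.0193, −0.0082 and −0.0008, where pairs of different number ranged from −0.0411 to 0.0494. Male replicate 1 was not compared in this way. The labels do not say whether same-numbered samples shared a batch, and these correlations cannot settle it.

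Of 30 genes followed, 24 kept their direction in all 15 alternatives, and of 450 fold changes 408 kept their direction and side of the threshold, 21 lost and 7 gained a call. The sign reversed in 14. These were *Cacna1c* (−0.026), *Cacna1h* (−0.18) and *Cacna1i* (−0.11) with library size only, *Cacna1b* (0.13), *Cacnb1* (0.27) and *Cacnb2* (0.28) with all 8 samples, and *Cacnb1* (0.064) with the block. With 1 sample left out the values ranged over both signs for *Cacna1b* (−0.24 to 0.059), *Cacnb1* (−0.223 to 0.081), *Cacna1h* (−0.26 to 0.298) and *Cacna1i* (−0.14 to 0.520). The cause was not tested. At this depth genes near the floor of 3 counts (0.0921 to 0.146 CPM), such as *Cacna1s* and *Cacng3*, cannot be compared between the sexes.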
